A study of Mus musculus with 5 samples.

Results

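Autophagy carries damaged organelles and protein aggregates to lysosomes, where acid hydrolases degrade them. A set of 43 mouse genes of this pathway was compared between tunicamycin-treated LRRK2-WT and LRRK2-GS samples, which the labels call astrocytes. Of these genes, 26 encode the autophagy machinery and 17 encode lysosomal enzymes and membrane proteins. They were chosen by function, with earlier results of these data known. A gene was measured by the probe set that carries its symbol and no other. This gave values for 41 of the 43 genes (25 of the machinery and 16 of the lysosome), among 22059 genes measured on the arrays. Optn, a cargo receptor, was not matched by symbol, and the probe set of Glb1, a lysosomal beta-galactosidase, carries several symbols, so both were not analysed here. Gabarap and Npc1 had 2 probe sets each, and the one with the higher mean was taken.

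LRRK2 is a kinase, and carriers of its G2019S mutation are prone to Parkinson's disease. Tunicamycin stresses the endoplasmic reticulum (ER) by blocking N-linked glycosylation. The LRRK2-WT group (2 arrays) came from heterozygous wild type-LRRK2-Tg FVB mice and the LRRK2-GS group (3 arrays) from heterozygous G2019S-LRRK2-Tg FVB mice. Both groups are labelled as primary astrocytes, which the methods describe as cortical cultures of newborn mice, and both received tunicamycin, for which the labels give 0.2 μg/ml and 3 h. The paper gives a longer treatment and, in a legend, a lower dose. No source used here gives the promoter that drives each transgene. All 5 arrays are of treated cells, so each difference below is between genotypes under tunicamycin. Nothing in the labels says whether the arrays of a group came from separate cultures. The p-values thus rest on the spread of these arrays alone, which may be technical.

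The labels were checked against marker genes before the members were compared. The hepatocyte marker albumin (Alb) lay between 12.55 and 12.69 on the log2 scale on the 5 arrays, and 13 of 14 measured hepatocyte markers were among the brightest probe sets (above the 90th percentile, 6.42). Of 15 astrocyte markers, 9 were above the background level of 3.39, the level that 95% of 1107 probe sets of olfactory receptors stay under, and 3 were above 6.42. The defining astrocyte markers Aqp4 (2.67 to 2.92), S100b (2.07 to 2.23) and Slc1a3 (2.09 to 2.10) lay below background on every array. The 3 bright ones were Aldh1l1 (7.35 to 8.35), Slc4a4 (7.46 to 8.25) and Ndrg2 (8.48 to 9.80), which liver also expresses, and Gfap, the intermediate filament of astrocytes, lay between 3.99 and 4.28. The values below therefore cannot be assigned to astrocytes. Xist, which is transcribed from the inactive X chromosome, read 8.49 and 8.09 on the LRRK2-WT arrays and 2.41 to 2.65 on the LRRK2-GS arrays, whereas the Y-linked gene Eif2s3y read 2.03 and 2.31 against 6.13 to 6.68. Genotype and the sex that these genes mark therefore cannot be told apart in these arrays for any member, autosomal ones included. Of the members, 3 (Tfe3, Lamp2 and Gla) are also X-linked. The mouse Lrrk2 probe set lay near background, at 3.45 and 3.45 in LRRK2-WT and 3.50, 3.41 and 3.33 in LRRK2-GS (difference −0.04, adjusted p = 0.876 in limma).

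Autophagy starts when the ULK kinases and the lipid kinase complex around Beclin 1 mark a membrane, which then grows as ubiquitin-like conjugation enzymes attach ATG8 family proteins to it. Cargo receptors hold on to both the cargo and the ATG8 proteins, and the closed autophagosome fuses with a lysosome. The transcription factors TFEB and TFE3 bind E-box elements of many lysosomal and autophagy genes, and they are held in the cytoplasm when the kinase mTORC1 is active on the lysosomal surface.

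No member was called different between the genotypes. In LRRK2-GS 17 members were higher and 24 were lower, beside 48.8% and 42.7% of all tested probe sets (the rest differed by 0). Of probe sets above background 50.0% were lower, and of the brightest 60.0%. The members' median difference (LRRK2-GS minus LRRK2-WT, log2) was −0.04, beside −0.03 over the brightest probe sets and 0.0 over all tested. A call needed a change of over 1.5-fold and an adjusted p no higher than 0.05, which 0 of the 41 members and 0 (0.0%) of 23396 tested probe sets reached. The smallest adjusted p among the members was 0.826 in limma, with Benjamini-Hochberg adjustment across the whole table, and the independent t test of the methods also called 0. At an unadjusted limma p under 0.05 there was 1 member of 41, Ulk1, beside 2.09% of all tested probe sets, and the t test also gave 1. None of the members differed by over 1.5-fold, which 0.957% of all tested probe sets did. The groups did not overlap in 5 members: Gla was higher in all LRRK2-GS arrays, and Ulk1, Nbr1, Lamp2 and Ctsh were lower. Such separation was seen in 3.76% of tested probe sets in the higher direction and in 3.74% in the lower. Among the brightest probe sets, to which 23 of the 41 members belong, the share was 4.36% with LRRK2-GS higher and 10.5% with LRRK2-GS lower. In bulk RNA, fewer cells of a type and less RNA per cell cannot be told apart.

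**Figure D1:**
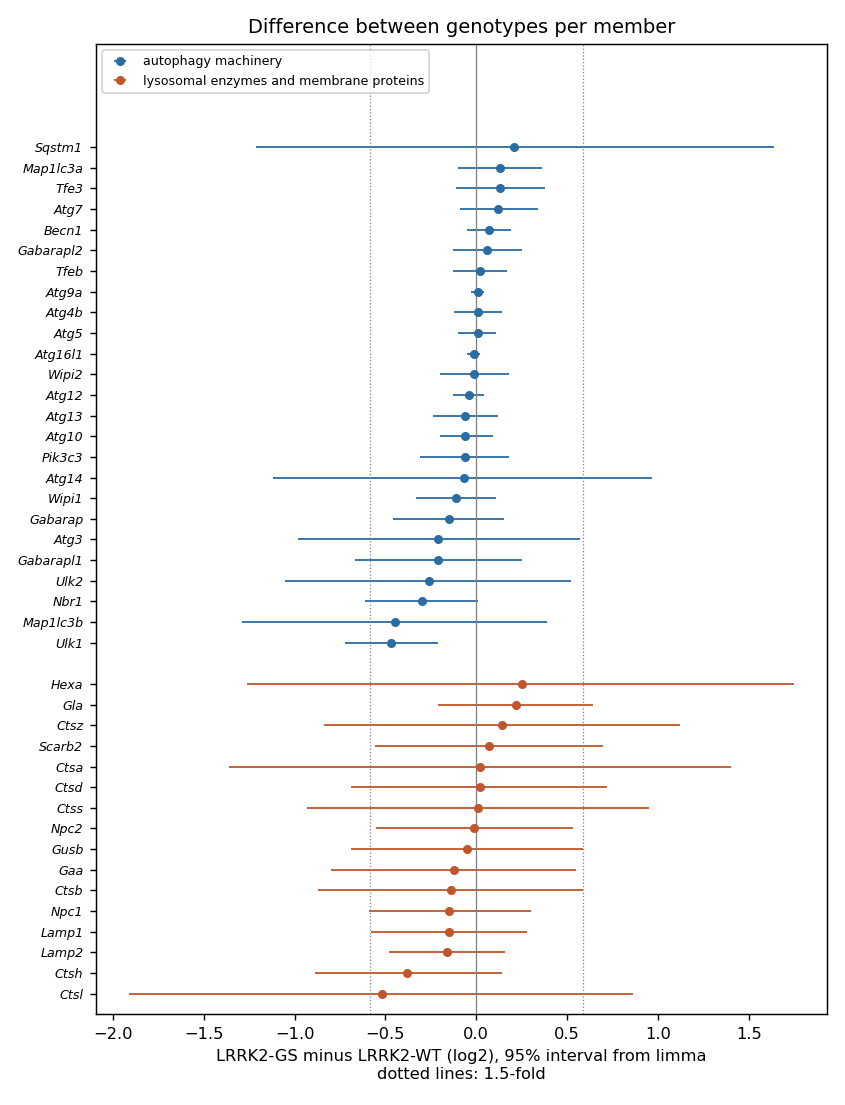
Difference between genotypes for each of the 41 measured members (LRRK2-GS minus LRRK2-WT, log2), with the 95% interval from limma (n = 2 and n = 3 arrays). Points on the right are higher in LRRK2-GS, and dotted lines mark 1.5-fold. Every point lies inside the dotted lines, and only the interval of Ulk1 (−0.72 to −0.21) leaves out 0.

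The median differences of the 2 classes lay close to 0, and the lysosomal members spread more within LRRK2-GS than the machinery did. The median difference was −0.04 over the machinery (10 members higher and 15 lower) and −0.03 over the lysosomal members (7 higher and 9 lower), so lysosomal minus machinery was 0.01. Leaving out 1 array moved this value to between −0.20 (without LRRK2-GS array 1) and 0.09 (with array 2 of that group left out), and it was not tested. Within the LRRK2-GS group, the median SD of a member was 0.09 in the machinery and 0.32 in the lysosomal class, beside 0.07 and 0.04 in LRRK2-WT. Among the brightest probe sets these medians were 0.17 in LRRK2-GS and 0.07 in LRRK2-WT, and over all tested 0.09 and 0.04. The classes also differed in level, as 13 of 16 lysosomal and 10 of 25 machinery members were among the brightest. The 3 LRRK2-GS arrays spanned more than 0.5 log2 units in 12 of 16 lysosomal members and in 4 of 25 machinery members. Of all tested probe sets 13.2% spanned that much, and of the brightest 30.5%. The span within LRRK2-GS was larger than the difference between genotypes in 16 of 16 lysosomal members and in 17 of 25 machinery members, beside 69.5% of all tested and 83.3% of the brightest probe sets.

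The spread followed particular arrays. Taking each member relative to its own mean over the 5 arrays, the median of the lysosomal class was 0.03 and 0.01 on LRRK2-WT arrays 1 and 2 (numbered as in the labels) and 0.33, −0.14 and −0.17 on LRRK2-GS arrays 1, 2 and 3. The machinery stayed between −0.02 and 0.01 on all arrays. Lysosomal members were thus high on 1 LRRK2-GS array and low on the others, and their group means of 0.02 and 0.00 differed by less than the pooled SD between arrays of 0.23. LRRK2-GS array 1 was the highest of the 5 arrays in 12 of 16 lysosomal and 4 of 25 machinery members, beside 20.0% of all tested and 23.2% of the brightest probe sets. It was the highest and LRRK2-GS array 3 the lowest in 7 of 16 lysosomal and 2 of 25 machinery members, beside 5.62% of all tested and 10.8% of the brightest. Without LRRK2-GS array 1, 2 of the 16 lysosomal members were higher in LRRK2-GS in place of 7, and their median difference was −0.22.

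**Figure D2:**
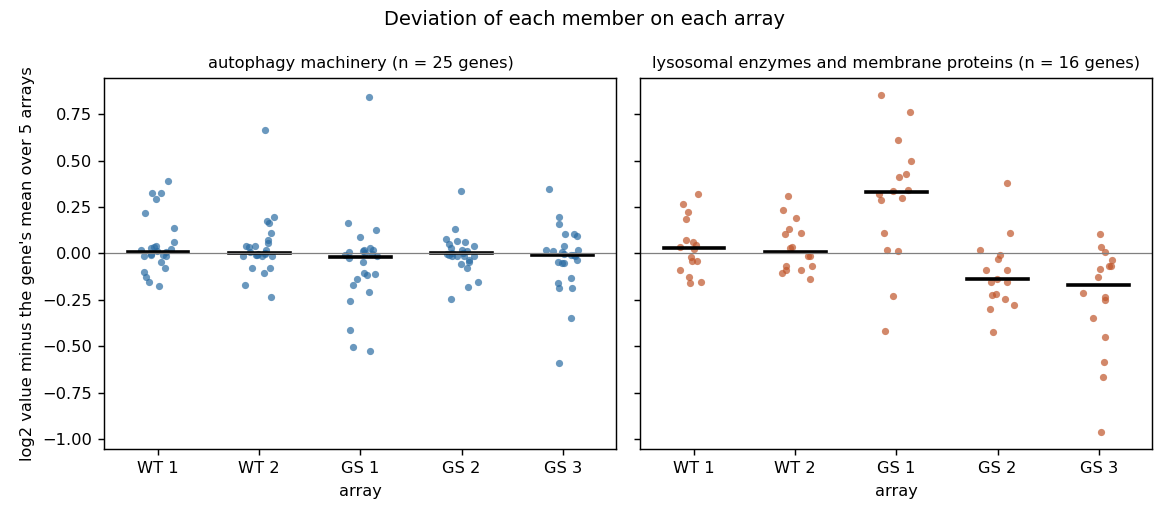
Each measured member relative to its own mean over the 5 arrays (log2), by array, with machinery and lysosomal members in separate panels and the class median as a bar. The lysosomal median is 0.33 on LRRK2-GS array 1 and −0.17 on LRRK2-GS array 3, while the machinery median stays between −0.02 and 0.01.

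Cathepsins, the lysosomal proteases, had the widest spread of the lysosomal groups by median span. All 7 spanned more than 0.5 within LRRK2-GS (median span 0.95), and 6 of them were highest on LRRK2-GS array 1. Cathepsin L (Ctsl), a cysteine protease, read 9.96 and 9.95 in LRRK2-WT and 10.07, 9.55 and 8.68 in LRRK2-GS. The LRRK2-WT pair was nearly equal, and LRRK2-GS array 3 lay far below all others. Its difference of −0.52 was the largest in size among the members, but with an interval of −1.91 to 0.86 (adjusted p = 0.826). Leaving out LRRK2-GS array 3 gave −0.15, and leaving out LRRK2-GS array 1 gave −0.84.

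Cathepsin D (Ctsd), the main aspartic protease of lysosomes, read 8.57 and 8.46 in LRRK2-WT and 8.94, 8.37 and 8.29 in LRRK2-GS. LRRK2-GS array 1 lay above and the other two below the LRRK2-WT pair, and the difference was 0.02 (interval −0.69 to 0.72, adjusted p = 1). It became −0.19 without LRRK2-GS array 1. Cathepsin B (Ctsb), a cysteine protease, read 10.08 and 9.88 against 10.18, 9.47 and 9.86. Here the groups overlapped again, and LRRK2-GS array 2 was the lowest. The difference of −0.14 (interval −0.87 to 0.59, adjusted p = 0.892) became 0.04 without that array.

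Cathepsin H (Ctsh), an aminopeptidase, was the exception among the cathepsins. It read 7.66 and 7.67 in LRRK2-WT and 7.02, 7.30 and 7.54 in LRRK2-GS. All LRRK2-GS arrays lay below the LRRK2-WT pair, and array 1, on which the other cathepsins were highest, was the lowest. The difference was −0.38 (interval −0.89 to 0.14, adjusted p = 0.826), and −0.24 without LRRK2-GS array 1. Cathepsin A (Ctsa), which also protects beta-galactosidase and neuraminidase in a complex, read 7.25 and 7.48 against 8.14, 7.22 and 6.79. The macrophage-rich cathepsin S (Ctss) read 6.53 and 6.60 against 7.07, 6.54 and 6.12, and the carboxypeptidase cathepsin Z (Ctsz) 8.63 and 8.63 against 9.33, 8.63 and 8.37. In these 3 the LRRK2-GS arrays lay on both sides of LRRK2-WT, and the differences were 0.02, 0.01 and 0.14.

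All 4 measured glycosidases were highest on LRRK2-GS array 1. Hexa, the alpha subunit of beta-hexosaminidase, which breaks down GM2 ganglioside, read 6.19 and 6.21 in LRRK2-WT and 7.20, 6.46 and 5.68 in LRRK2-GS. Its LRRK2-GS arrays lay on both sides of the LRRK2-WT pair and spanned 1.52, the widest span of any member. The difference was 0.25 (interval −1.26 to 1.75, adjusted p = 0.919) and turned to −0.13 without LRRK2-GS array 1. The X-linked Gla, alpha-galactosidase A, read 4.09 and 4.14 against 4.58, 4.24 and 4.18. All LRRK2-GS arrays lay above both LRRK2-WT arrays, array 3 by a small margin. The difference was 0.22 (interval −0.21 to 0.64, adjusted p = 0.826), and 0.09 without LRRK2-GS array 1. Gaa, the acid alpha-glucosidase that degrades glycogen, and Gusb, beta-glucuronidase, differed by −0.12 and −0.05.

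The membrane and cholesterol transport proteins followed the arrays less closely, and 2 of 5 were highest on LRRK2-GS array 1. Lamp1, a main glycoprotein of the lysosomal membrane, read 9.67 and 9.71 in LRRK2-WT and 9.71, 9.30 and 9.61 in LRRK2-GS. Only LRRK2-GS array 2 stood apart, and the difference of −0.15 (interval −0.58 to 0.28, adjusted p = 0.826) was −0.03 without it. Lamp2, the X-linked relative of Lamp1 that is also needed for chaperone-mediated autophagy, read 9.15 and 9.22 against 9.10, 8.84 and 9.12. All LRRK2-GS arrays lay below LRRK2-WT, arrays 1 and 3 by a narrow margin. The difference was −0.16 (interval −0.48 to 0.16, adjusted p = 0.826), and −0.07 without LRRK2-GS array 2. Npc1 and Npc2, which pass cholesterol out of the lysosome, differed by −0.15 and −0.01. Scarb2, the receptor that sorts glucocerebrosidase to lysosomes, differed by 0.07, highest on LRRK2-GS array 2 and lowest on LRRK2-GS array 1.

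**Figure D3:**
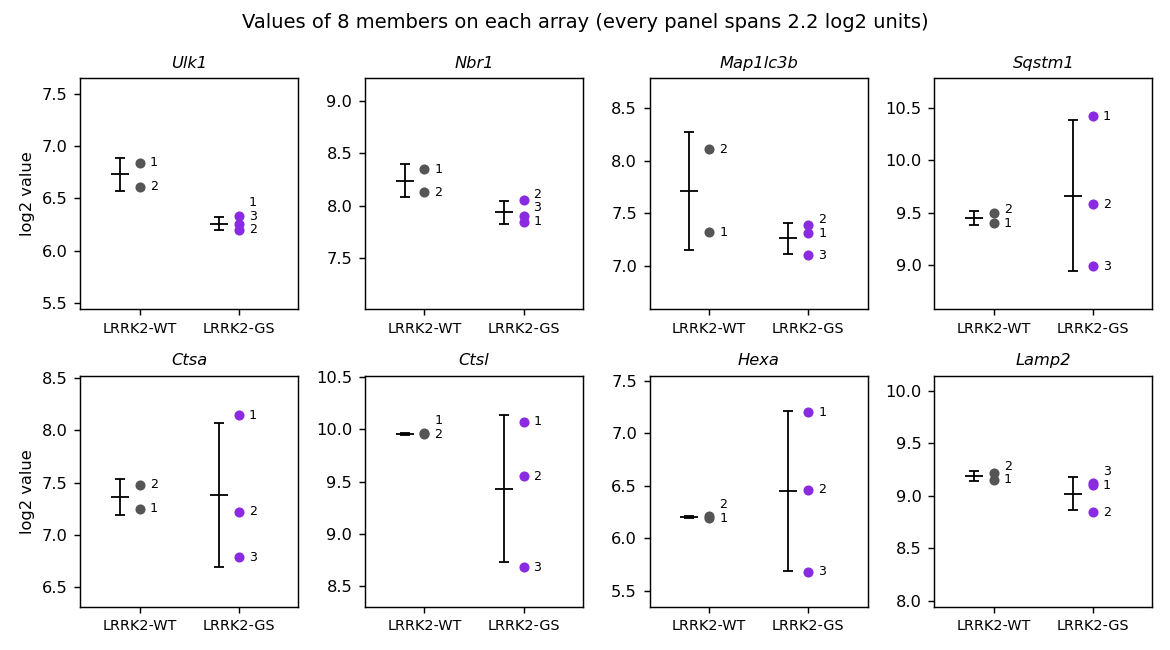
Log2 level on each array for members described in the text, with LRRK2-WT and LRRK2-GS arrays side by side, array numbers beside the points, and the group mean ± SD as a bar (n = 2 and n = 3). Ulk1, Nbr1 and Lamp2 are lower on all LRRK2-GS arrays, whereas Ctsa, Ctsl, Sqstm1 and Hexa span 1.35, 1.39, 1.43 and 1.52 log2 units within LRRK2-GS.

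In the machinery the smallest p-value was that of an initiation kinase. Ulk1, the kinase that starts autophagosome formation, read 6.84 and 6.61 in LRRK2-WT and 6.33, 6.20 and 6.26 in LRRK2-GS. All LRRK2-GS arrays lay below both LRRK2-WT arrays and close to each other. The difference was −0.47 ± 0.09 (SE), which is 1.38-fold lower, with an interval of −0.72 to −0.21. Its p was under 0.05 before adjustment and did not pass it (adjusted p = 0.826), and leaving out 1 array at a time gave −0.58 to −0.35. Ulk2, its close relative, read 6.98 and 6.64 against 6.15, 6.64 and 6.85. The groups overlapped, with LRRK2-GS array 1 lowest, and the difference of −0.26 (interval −1.05 to 0.52, adjusted p = 0.826) was −0.07 without that array and −0.09 without LRRK2-WT array 1. The other measured members of this step were Atg13, a partner of the ULK kinases, and the lipid kinase subunits Pik3c3, Becn1 and Atg14. Their differences were −0.06, −0.06, 0.07 and −0.07. Atg14 varied most of these, with 6.06 and 5.50 in LRRK2-WT and 5.21, 6.07 and 5.84 in LRRK2-GS.

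Of the 5 ATG8 family genes 2 were higher and 3 were lower. Map1lc3b, which encodes the LC3B protein used to count autophagosomes, read 7.32 and 8.11 in LRRK2-WT and 7.31, 7.39 and 7.10 in LRRK2-GS. LRRK2-WT array 2 stood above all others, and LRRK2-WT array 1 lay within the LRRK2-GS range. The difference of −0.45 (interval −1.29 to 0.39, adjusted p = 0.826) became −0.05 without LRRK2-WT array 2 and −0.85 when array 1 was left out instead. The GABARAP subfamily, which acts later in autophagosome closure, differed by −0.15 (Gabarap), −0.21 (Gabarapl1) and 0.06 (Gabarapl2), and Map1lc3a by 0.13.

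The 2 measured cargo receptors differed from each other in how they varied. Sqstm1 encodes p62, which carries ubiquitinated proteins into autophagosomes. It read 9.40 and 9.50 in LRRK2-WT and 10.42, 9.58 and 8.99 in LRRK2-GS. Its LRRK2-GS arrays spanned 1.43 and lay on both sides of LRRK2-WT, in the order seen for most lysosomal enzymes. The difference of 0.21 (interval −1.21 to 1.64, adjusted p = 0.935) became −0.16 without LRRK2-GS array 1. Nbr1, a relative of p62 with the same kind of cargo, read 8.35 and 8.13 against 7.85, 8.06 and 7.90. All LRRK2-GS arrays lay below LRRK2-WT. The difference was −0.30 (interval −0.61 to 0.01, adjusted p = 0.826), and −0.19 without LRRK2-WT array 1.

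Conjugation genes varied little. Atg5, whose product joins Atg12 to form part of the ligase for ATG8 proteins, read 6.98 and 6.99 in LRRK2-WT and 6.96, 7.05 and 6.95 in LRRK2-GS. The arrays were nearly equal, and the difference was 0.01 (interval −0.10 to 0.11). Atg7, the E1-like enzyme, differed by 0.12, and the E2-like enzymes Atg3 and Atg10 by −0.21 and −0.06. Atg12, Atg16l1 and the protease Atg4b differed by −0.04 to 0.01. Atg3 was the only one of these 7 to span more than 0.5 within LRRK2-GS, at 6.83, 7.06 and 7.59. It was lowest on array 1 and highest on array 3, which is the opposite order to most lysosomal enzymes. Wipi1 and Wipi2, which bind phosphatidylinositol 3-phosphate on the growing membrane, and Atg9a, which brings in membrane, differed by −0.11, −0.01 and 0.01. Atg12, Atg16l1 and Wipi1 held the same value on 4 of 5 arrays, and 19 of 41 members held a value shared by at least 2 arrays, as did 77.8% of all tested probe sets. No source used here names the step of the authors' processing that gives such ties.

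Both transcription factors of the pathway were a little higher in LRRK2-GS. Tfeb read 3.10 and 3.10 in LRRK2-WT and 3.20, 3.10 and 3.06 in LRRK2-GS, and was the only member at or below the background level. Its difference of 0.02 (interval −0.13 to 0.17, adjusted p = 0.963) turned to −0.02 without LRRK2-GS array 1. The X-linked Tfe3 read 5.52 and 5.67 against 5.84, 5.67 and 5.67. LRRK2-WT array 1 was low and LRRK2-GS array 1 was high, with the remaining arrays equal. The difference was 0.13 (interval −0.11 to 0.38, adjusted p = 0.826), with 0.06 left without LRRK2-WT array 1. Leaving out LRRK2-GS array 1 instead gave 0.08. Their mRNA levels do not measure how much of either protein was in the nucleus. The members outside the rule for full values (given with the processing below) numbered 26. Their differences were −0.21 to 0.14 (11 higher and 15 lower), and none had an unadjusted p under 0.05. Some of these, such as Atg5 and Ctsa, are nonetheless given by array above.

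Promoter sequences give the context in which TFEB and TFE3 would act. Both bind the E-box CACGTG, and TCACGTGA is its extended form (the CLEAR-type element), which contains the E-box. Each of these motifs is its own reverse complement, so 1 search covers both strands. In RefSeq promoters of GRCm38.p6, from 250 bases before to 50 bases after a start of transcription, 33 of 41 members were found. These had 38 windows, as a gene can have more than 1 start, and a gene counts if any of its windows holds the motif. CACGTG was present in 10 of 33 members (30.3%), in 6 of 13 lysosomal members (46.2%) and in 4 of 20 machinery members (20.0%), beside 8.09% of 27025 genes with a promoter in the table. TCACGTGA was present in 3 lysosomal members (23.1%) and 1 machinery member (5.0%), beside 1.12% of genes. The stretches that hold the motifs are given 5′ to 3′ on the strand of the gene, with the motif in capitals, because the 2 classes compared here differ in how many members hold one. Those of Atg7, Ctsa and Ctsl lie wholly inside the annotated gene, at a start downstream of its outermost one.

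Lysosomal members with a motif were the following.
Lamp1 (chr8:13159085-13159166, plus strand): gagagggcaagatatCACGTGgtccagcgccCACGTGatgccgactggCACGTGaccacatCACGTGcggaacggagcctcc
Ctsa (chr2:164833746-164833798, plus strand): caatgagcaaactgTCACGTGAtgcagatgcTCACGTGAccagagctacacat
Gla (chrX:134601179-134601247, minus strand): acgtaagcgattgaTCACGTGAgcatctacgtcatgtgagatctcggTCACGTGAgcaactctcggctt
Ctsd (chr7:142387905-142388077, minus strand): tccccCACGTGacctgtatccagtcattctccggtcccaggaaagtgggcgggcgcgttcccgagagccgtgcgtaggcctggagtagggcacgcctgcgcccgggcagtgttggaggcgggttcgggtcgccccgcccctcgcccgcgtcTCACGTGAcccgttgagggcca
Ctsl (chr13:64370736-64370770, minus strand): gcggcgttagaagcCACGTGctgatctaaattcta
Gaa (chr11:119267808-119267843, plus strand): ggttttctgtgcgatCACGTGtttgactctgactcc
Machinery members with a motif were these.
Atg3 (chr16:45158720-45158778, plus strand): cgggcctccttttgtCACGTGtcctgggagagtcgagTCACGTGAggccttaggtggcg
Atg5 (chr10:44268310-44268345, plus strand): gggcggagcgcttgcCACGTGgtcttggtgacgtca
Atg7 (chr6:114670949-114670984, plus strand): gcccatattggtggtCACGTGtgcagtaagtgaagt
Atg14 (chr14:47568415-47568450, minus strand): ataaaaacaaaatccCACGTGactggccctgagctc

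Lamp1 held 4 copies of the E-box, at 61, 45, 28 and 15 bases before the start. Ctsa held 2 extended motifs on either side of the start, at 13 bases before and 4 after, and Gla held 2 at 228 and 195 bases before. All 6 lysosomal members with the E-box were highest on LRRK2-GS array 1, Lamp1 by less than the rounding of its 9.71. So were 5 of the 7 lysosomal members without it in this window, among them Hexa and Ctsz. Of the 4 machinery members with the E-box, Atg7 was highest on that array and Atg3 and Atg14 were lowest there. A match gives the letters in the window only and does not show that a factor bound there.

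Genes of the pathway outside the member set were counted from 7 lists (155 genes, 145 measured). In LRRK2-GS 51 were higher and 92 were lower, with a median difference of −0.03. None was called by limma, beside 0.0% of all tested probe sets. Of the 145 genes, 4 had an unadjusted p under 0.05 and 2 differed by over 1.5-fold, beside 2.09% and 0.957% of all tested probe sets. Of the genes of mTORC1 and TFEB control 11 of 25 were higher and 13 lower, and of further initiation and conjugation genes 10 of 23 were higher and 12 lower. Of selective autophagy receptors 6 of 16 were higher and 10 lower, of vacuolar ATPase subunits 9 of 15 and 6, and of genes of sorting to the lysosome 6 of 15 and 9. Other lysosomal hydrolases (5 of 32 higher and 27 lower) and other lysosomal membrane genes (4 of 19 higher and 15 lower) had medians of −0.06 each. Of all tested probe sets 42.7% were lower, of those above background 50.0% and of the brightest 60.0%. Of these 2 lists, 31 of 32 and 18 of 19 genes were above background and 8 and 4 were among the brightest. Of the 4 with an unadjusted p under 0.05, the largest difference was in Retreg1, a receptor for autophagy of the ER. It read 8.47 and 8.06 in LRRK2-WT and 7.29, 7.07 and 7.60 in LRRK2-GS. All LRRK2-GS arrays were lower, and the difference was −0.94 (adjusted p = 0.826 in limma). Hgsnat, which acetylates heparan sulfate in the lysosome, differed by −0.26, and Sidt2, a lysosomal membrane protein, by −0.09. Cd68, a macrophage lysosomal glycoprotein, differed by 0.67, from 3.39 and 2.91 to 3.71, 3.71 and 4.03, which is close to background. The adjusted p was 0.826 in each of these 3 genes.

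LRRK2-GS array 1 was also the highest array for other lysosomal genes, but not for all kinds. It was highest in 11 of 15 subunits of the vacuolar ATPase, which acidifies lysosomes, and none of these was lowest there. Atp6v0b, a membrane subunit, read 7.37 and 7.33 in LRRK2-WT and 7.82, 7.17 and 7.33 in LRRK2-GS. Among genes of sorting to the lysosome it was highest in 7 of 15, and Grn, the lysosomal growth factor progranulin, read 8.27 and 8.55 against 9.16, 8.17 and 7.61. Grn had the order seen in most cathepsins, high on LRRK2-GS array 1 and low on array 3, whereas Atp6v0b was lowest on array 2. Of other hydrolases 8 of 32 were highest on LRRK2-GS array 1, and of other lysosomal membrane genes 4 of 19 were, beside 22.0% of probe sets above background.

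**Figure D4:**
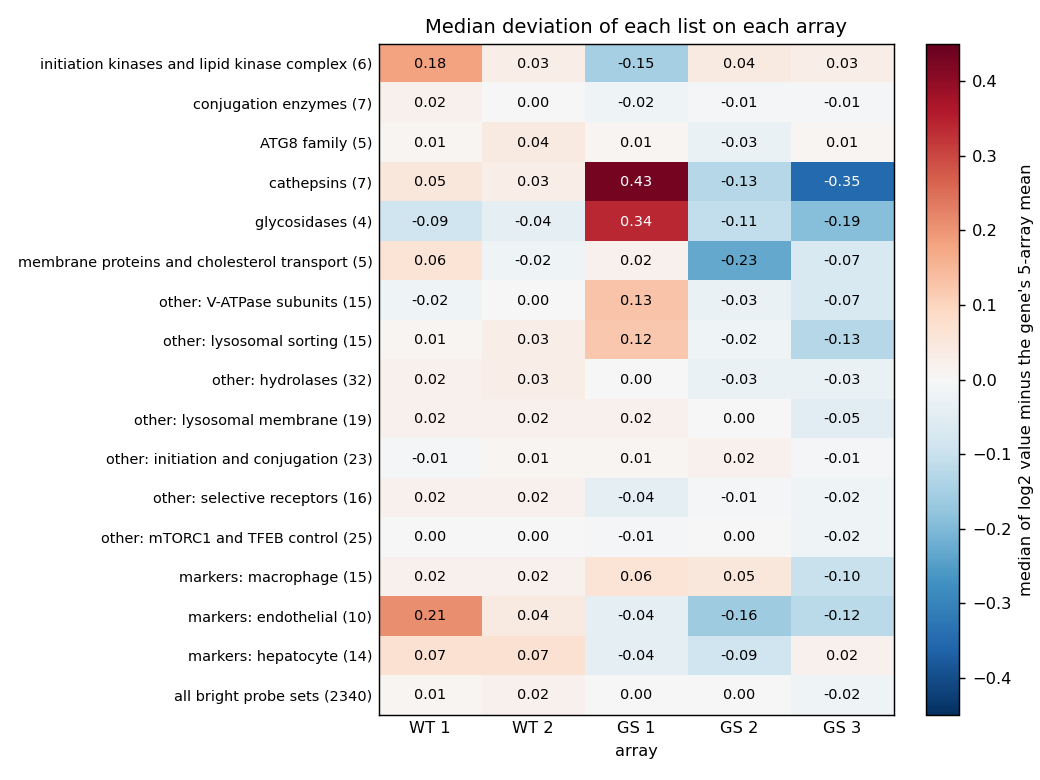
Median over each gene list of the members' levels relative to their own 5-array means (log2), for each array. Cathepsins (0.43) and glycosidases (0.34) are highest on LRRK2-GS array 1, where the vacuolar ATPase list is at 0.13 and the macrophage markers are at 0.06.

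Lysosomal genes are strongly expressed in macrophages, so macrophage markers (Kupffer cell and microglial genes included) were set beside the members. All 15 listed were measured and above background. Their summed linear level was 874 and 842 in LRRK2-WT and 898, 884 and 751 on LRRK2-GS arrays 1, 2 and 3. By median deviation they were at 0.02 and 0.02 in LRRK2-WT and at 0.06, 0.05 and −0.10 in LRRK2-GS. LRRK2-GS array 2 was thus near array 1 for these markers, whereas the lysosomal class was at −0.14 on array 2. Their own patterns differed: Marco, a scavenger receptor, read 5.74 and 6.06 in LRRK2-WT and 6.74, 5.82 and 5.34 in LRRK2-GS, whereas Vsig4, a complement receptor of Kupffer cells, read 6.90 and 6.82 against 5.64, 6.67 and 6.55. LRRK2-GS array 1 was thus highest for the first and lowest for the second. Over the 15 markers it was highest in 5 and lowest in 3, beside 5 and 2 for LRRK2-GS array 2. LRRK2-GS array 1 read above LRRK2-GS array 3 in 10 of 15, beside 42.8% of probe sets above background. The summed hepatocyte markers were 40600 and 40700 in LRRK2-WT and 35000, 35300 and 40800 in LRRK2-GS arrays 1, 2 and 3. The summed astrocyte markers were 1460 and 1300 against 951, 1180 and 1550. Most of that sum comes from Ndrg2, Slc4a4 and Aldh1l1, which liver also expresses. By median deviation the astrocyte markers were at 0.01 and 0.04 in LRRK2-WT against −0.03, 0.00 and 0.00 in LRRK2-GS. Endothelial markers were lower in LRRK2-GS in 9 of 10 genes, with median deviations of 0.21 and 0.04 against −0.04, −0.16 and −0.12. The part of cell composition in the spread of the lysosomal members was not tested.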

How the data were processed

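RNA of 2 LRRK2-WT and 3 LRRK2-GS samples was measured on Affymetrix Mouse Gene ST microarrays, from which the authors exported data with the Affymetrix Command Console. The authors deposited 1 table of log2 expression values for 33640 probe sets. Background correction, normalization and filters were not given in the sources used here. Values were used as deposited.

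Probe sets with exactly 1 gene symbol (23396) were tested, with symbols from the platform annotation, of which 23203 were updated to GRCm38.p6. LRRK2-GS was compared with LRRK2-WT in limma 3.58.1 (R 4.3.3), two-sided, with eBayes defaults, no replicate block and p-values adjusted by Benjamini-Hochberg across the whole table. The prior degrees of freedom were 0.595, so each gene's spread rests mostly on its own 5 values. The steps were tested on simulated data. Members and gene lists were chosen with earlier results of these data known. Full values are given for members with an unadjusted p under 0.05, groups that do not overlap, the 4 largest differences of each class and a fixed list of well-known genes, and of other lists at most the 3 genes with the smallest p. Other genes named beside an array pattern (Marco, Vsig4, Grn and Atp6v0b, and members outside that rule) were picked after their values were seen. Alternatives were other priors, array weights, quantile and cyclic loess normalization, a filter on dim probe sets, the mean over probe sets of a gene, a replicate block, the methods' t test and leaving out each array. The number of arrays limits the precision.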

Additional observations from a re-analysis of the deposited data

How the results depend on the processing

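Under 13 alternatives no member was called. Over all tested probe sets 0 were called, except for 26 without LRRK2-WT array 1 and 28 when array 2 was left out instead (leave-one-out range 0 to 28), where 1 array stands for that genotype and is assumed to vary like the others. Members with an unadjusted p under 0.05 numbered 1 to 4 when 1 array was left out, and 2 with the filter on dim probe sets or quantile normalization. The median difference of the machinery was −0.01 with array weights, −0.05 with the filter on dim probe sets, −0.02 with quantile normalization, and −0.06 to 0.00 when 1 array was left out. The number of lysosomal members higher in LRRK2-GS ranged from 2 to 9, and their median difference from −0.22 to 0.04. The sign turned for Ctsd with array weights (−0.01) and Tfeb with quantile normalization (−0.02). Leaving out 1 array gave −0.19 to 0.14 for Ctsd, −0.02 to 0.05 for Tfeb, −0.16 to 0.55 for Sqstm1, −0.13 to 0.63 for Hexa and −0.31 to 0.04 for Ctsb. The adjusted p of Ulk1 ranged from 0.113 to 0.894. The cause of these changes was not tested. The filter on dim probe sets leaves out Tfeb.

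Replicate numbers did not pair the arrays (r of same-numbered deviations −0.126 and 0.0878). With the replicate number as a block, on the 4 arrays of numbers 1 and 2, no member was called, 1 had an unadjusted p under 0.05, the machinery median was −0.02 and the lysosomal median 0.02.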
